A study of Mus musculus with 6 samples.

Results

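Osteocalcin is the most abundant non-collagen protein of bone matrix, and in the mouse it is encoded by Bglap and Bglap2, with the related gene Bglap3 beside them. The genes described here are these 3 copies, Mgp, which encodes the related matrix Gla protein, and 3 genes of vitamin K-dependent carboxylation, Ggcx, Vkorc1 and Vkorc1l1. These 7 genes were taken by symbol from a table of 19679 gene symbols, and the RPKM of all transcripts of a symbol were summed, where RPKM is the read number scaled by transcript length and by mapped reads. All 7 lay above the filter used for testing, a mean of 0.5 RPKM over the libraries, as did 12752 genes in all.

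The study set osteoblasts of the mandible, the lower jaw bone, beside osteoblasts of the tibia, the shin bone, with 3 RNA sequencing libraries per site. Mice of both groups were at postnatal day 9 and carried the transgene Col1a1*2,3-GFP, in which green fluorescent protein is driven by a promoter fragment of the type I collagen gene Col1a1. Each of 3 dissections pooled the bones of about 50 mice, digested them with collagenase and sorted the fluorescent cells, and 2 to 8 ng of RNA entered a low-input cDNA kit. A cell was therefore chosen by the activity of a collagen promoter fragment and not by osteocalcin, each library is a pool and not a mouse, and no sample without the transgene was compared. Values of a site are given in the order of libraries 1, 2 and 3, which come from dissections 1, 2 and 3. In such bulk samples fewer cells of a type and less RNA per cell cannot be told apart.

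Carboxylation turns glutamate residues of a protein into gamma-carboxyglutamate (Gla), which binds calcium. The carboxylase Ggcx does this in the endoplasmic reticulum and oxidises reduced vitamin K to its epoxide, and the epoxide reductase Vkorc1, the target of warfarin, returns the epoxide to the reduced form. Vkorc1l1 is a paralog with the same activity. Osteocalcin binds bone mineral through its Gla residues, and its undercarboxylated form circulates. Mgp inhibits calcification and is made mostly by cartilage and vascular smooth muscle cells.

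The 3 osteocalcin genes lie next to each other on the minus strand of mouse chromosome 3. In build GRCm38 with the GENCODE M21 annotation, Bglap spans chr3:88383501-88384464, Bglap2 chr3:88377736-88378699 and Bglap3 chr3:88368616-88372743. Gaps of 4801 bases between Bglap and Bglap2 and of 4992 bases between Bglap2 and Bglap3 place the cluster within 15849 bases. Bglap and Bglap2 each have 4 exons and an equal span of 964 bases. Mgp lies at chr6:136872435-136875823 on the minus strand with 4 exons, and Ggcx at chr6:72414308-72430712 on the plus strand with 15 exons. Vkorc1 lies at chr7:127893063-127895617 on the minus strand with 3 exons, and Vkorc1l1 at chr5:129941970-129986692 on the plus strand.

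The coding sequences of the copies are shown because their likeness sets how far reads can be assigned to one copy. They were read from the GRCm38 transcripts of GENCODE M21, 5′ to 3′ on the coding strand from the start codon to the stop codon, and capitals mark bases that differ from Bglap.
Bglap: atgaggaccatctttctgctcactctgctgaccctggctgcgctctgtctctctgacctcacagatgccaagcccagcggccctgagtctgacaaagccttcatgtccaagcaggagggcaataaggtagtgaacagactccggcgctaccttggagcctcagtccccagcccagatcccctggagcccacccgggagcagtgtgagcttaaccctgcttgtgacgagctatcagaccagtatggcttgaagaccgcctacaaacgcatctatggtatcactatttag
Bglap2: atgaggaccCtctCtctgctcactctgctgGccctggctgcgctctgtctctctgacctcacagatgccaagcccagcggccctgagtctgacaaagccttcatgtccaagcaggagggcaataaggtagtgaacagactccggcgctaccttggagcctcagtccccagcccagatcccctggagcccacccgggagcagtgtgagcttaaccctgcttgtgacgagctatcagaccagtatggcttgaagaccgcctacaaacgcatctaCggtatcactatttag
Bglap3: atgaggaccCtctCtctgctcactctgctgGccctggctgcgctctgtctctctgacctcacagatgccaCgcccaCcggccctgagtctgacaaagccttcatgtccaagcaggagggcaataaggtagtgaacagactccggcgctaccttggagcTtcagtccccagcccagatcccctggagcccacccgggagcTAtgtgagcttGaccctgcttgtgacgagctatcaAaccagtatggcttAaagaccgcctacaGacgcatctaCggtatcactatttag

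Each coding sequence has 288 bases. Bglap and Bglap2 differ at 4 of them (98.6% identity), at A10C, T14C, A31G and T273C, where the Bglap base comes first and positions count from 1 at the A of the start codon. Between these differences runs an identical stretch of 241 bases, longer than the 50-base windows used here to judge sharing. Bglap3 differs from Bglap at 13 bases (95.5%) and from Bglap2 at 9 (96.9%), and it carries all 4 bases that set Bglap2 apart from Bglap. From the start codon to the transcript end, 422 bases in each copy, Bglap and Bglap2 are 99.1% identical.

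Of the 50-base windows of the Bglap transcript, 74.7% (292 of 391) occur unchanged in another copy, and of those of Bglap2 88.2% (372 of 422). For Bglap3, 12.5% of windows (284 of 2276) occur in other genes, pooled over 3 transcripts that are longer. From the start codon to the transcript end, Bglap3 is nevertheless 96.4% identical to Bglap and 97.4% to Bglap2. The read length and the rule for reads that match several places are not given in the sources used here. The split between Bglap and Bglap2 therefore rests mainly on few bases and on the authors' counting. Their summed RPKM depends less on that split, although the copies differ in length and reads dropped or counted more than once would change it too. Among the other genes, Mgp shares none of its windows (0.0%), Ggcx 0.1% and Vkorc1l1 7.4%. Vkorc1 shares 50.5% of its windows (353 of 699) with the transcript of the overlapping locus Gm21974, for which no row was used here. The RPKM of Vkorc1, and the shares and ratios made from it, may include reads of that locus.

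The proximal promoter of Bglap is shown because elements known to drive osteocalcin in osteoblasts lie there in the mouse. The RefSeq promoter table (GRCm38.p6) held a window of 250 bases before to 50 bases after the start for Bglap, Bglap3, Ggcx, Vkorc1 and Vkorc1l1. The 150 bases before the Bglap start, chr3:88384467-88384616 read on the minus strand, are given with capitals on TTACATCA, the letters of the element OSE1, at which the factor Atf4 acts.
Bglap promoter: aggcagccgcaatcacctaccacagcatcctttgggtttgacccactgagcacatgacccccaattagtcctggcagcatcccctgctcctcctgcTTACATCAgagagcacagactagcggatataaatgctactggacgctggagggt

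TTACATCA begins 54 bases before the start of Bglap (position -54). Searched on both strands, with TGATGTAA as the reverse complement, it occurred in 363 of 32851 promoters of the table (1.10%) and in no window of the other members held there. AACCACA, the letters of the Runx2 element OSE2, with TGTGGTT as the reverse complement, was searched for as exact letters only. It occurred in 1731 promoters (5.27%) and in none of the windows of the members held there. No window was held for Bglap2 or Mgp, so their promoters were searched for neither motif. The Bglap sequence shown holds taccaca, which differs from AACCACA only in its first base and was not counted. The 2 motifs do not overlap in their letters, and a match is a description of the sequence only.

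Osteocalcin was among the most abundant transcripts of all 6 libraries. Bglap, the major copy, stood at 17983, 18534 and 28192 RPKM in the mandible and at 16130, 12670 and 39020 RPKM in the tibia. It ranked first of all genes in the 3 mandible libraries and in tibia library 3, and held rank 2 in tibia library 1 and rank 3 in tibia library 2. The highest and the lowest value both came from the tibia, so the mandible libraries lay within the range of the tibia libraries. The means were 21570 ± 5742 RPKM (SD, n = 3) and 22607 ± 14319 RPKM (SD, n = 3).

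Bglap2, the copy whose coding sequence differs least from that of Bglap, stood at 7617, 6588 and 9802 RPKM in the mandible and at 7473, 4958 and 14208 RPKM in the tibia. Tibia library 3 was again the highest and tibia library 2 the lowest, and the groups overlapped. Bglap2 was below Bglap within each of the 6 libraries, although the highest Bglap2 value exceeded the lowest Bglap value of another library. Bglap and Bglap2 followed each other closely over the libraries (Pearson r = 0.97 on the log2 scale, n = 6), which is given as a description, since the copies share reads.

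Bglap3, the osteocalcin-related gene, was far below both. Its levels were 4.81, 8.02 and 23.1 RPKM in the mandible and 5.60, 6.30 and 33.7 RPKM in the tibia. Library 3 was the highest at each site and the groups overlapped. The part of Bglap or Bglap2 reads counted for Bglap3 in these levels was not tested. Of its 4 transcripts, NM_001305450 was at 1.75, 5.26 and 13.1 RPKM in the mandible and 0.794, 3.08 and 18.8 RPKM in the tibia, and NM_031368 at 1.02, 1.09 and 8.66 against 2.98, 2.38 and 12.4. These 2 transcripts made up most of the level of the gene in library 3, and NM_031368 stood lower in the mandible within every dissection without passing (log2 fold change -0.85, SE 0.85, limma adjusted p = 0.961, and 0.0731 once dissection was a block).

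**Figure D1:**
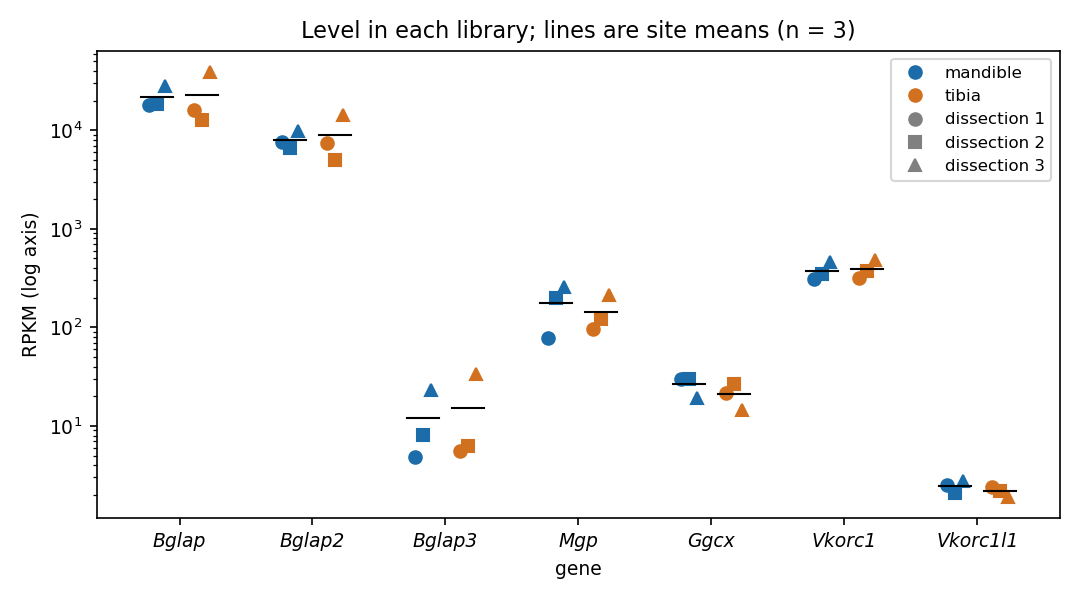
RPKM of the 7 genes in each library on a log axis, with mandible libraries in blue and tibia libraries in orange, marker shapes for the 3 dissections and lines at the site means (n = 3 each). The triangles of dissection 3 are the highest points of the 3 osteocalcin copies, Mgp and Vkorc1 at both sites and the lowest points of Ggcx, and the points of the sites overlap for each gene.

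Summed over the 3 copies, osteocalcin stood at 25605, 25130 and 38017 RPKM in the mandible and 23609, 17634 and 53262 RPKM in the tibia. It made up 6.52%, 6.12% and 6.49% of the summed RPKM of all genes in the mandible, and 6.31%, 4.52% and 9.72% of it in the tibia. The share was thus nearly level in the mandible, and tibia libraries 2 and 3 lay to either side of it. The log2 fold change of the sum, mandible minus tibia on log2(RPKM + 0.5), was 0.05 (SE 0.65, 95% interval -1.49 to 1.59, limma adjusted p = 0.992). When the dissection number entered as a block, the interval was -0.41 to 0.51 (limma adjusted p = 0.895). It thus included differences of either sign.

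None of the 7 genes passed the test between sites. limma called 0.972% of the 12752 genes tested (124 genes, 0.87% higher and 0.102% lower in the mandible) at an adjusted p under 0.05. When the dissection number entered as a block, it called 6.49% (828 genes, 4.44% higher and 2.05% lower), and 0 of the 7 were called in either fit. The groups did not overlap for 15.6% of all genes (12.6% higher and 3.05% lower) and for 0 of the 7. Leaving out mandible library 1, 2 or 3 gave 46, 40 and 141 called genes, and the same for the tibia gave 37, 48 and 72, and no member passed under any of these settings. At an unadjusted limma p under 0.05, 1147 genes passed without the block, none of them a member. With the block 3373 of the 12752 genes did, and Ggcx was the only member among them. The median log2 fold change over all genes tested was 0.12, and -0.01 after quantile normalization, so values of the members near 0.12 moved with the bulk of genes.

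For Bglap the log2 fold change was 0.08 (SE 0.63), with a 95% interval of -1.41 to 1.57 that included a difference of either sign. It was -0.06 with median-of-ratios scaling and between -0.25 and 0.56 when single libraries were left out. Bglap2 stood at -0.03 (SE 0.53, 95% interval -1.30 to 1.24, limma adjusted p = 0.993) and at 0.22 after quantile normalization. Bglap3 stood at -0.14 (SE 0.80, 95% interval -2.05 to 1.77, limma adjusted p = 0.987). The sign of each copy turned in some setting, and Bglap was higher in the mandible in 2 of 3 dissections.

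**Figure D2:**
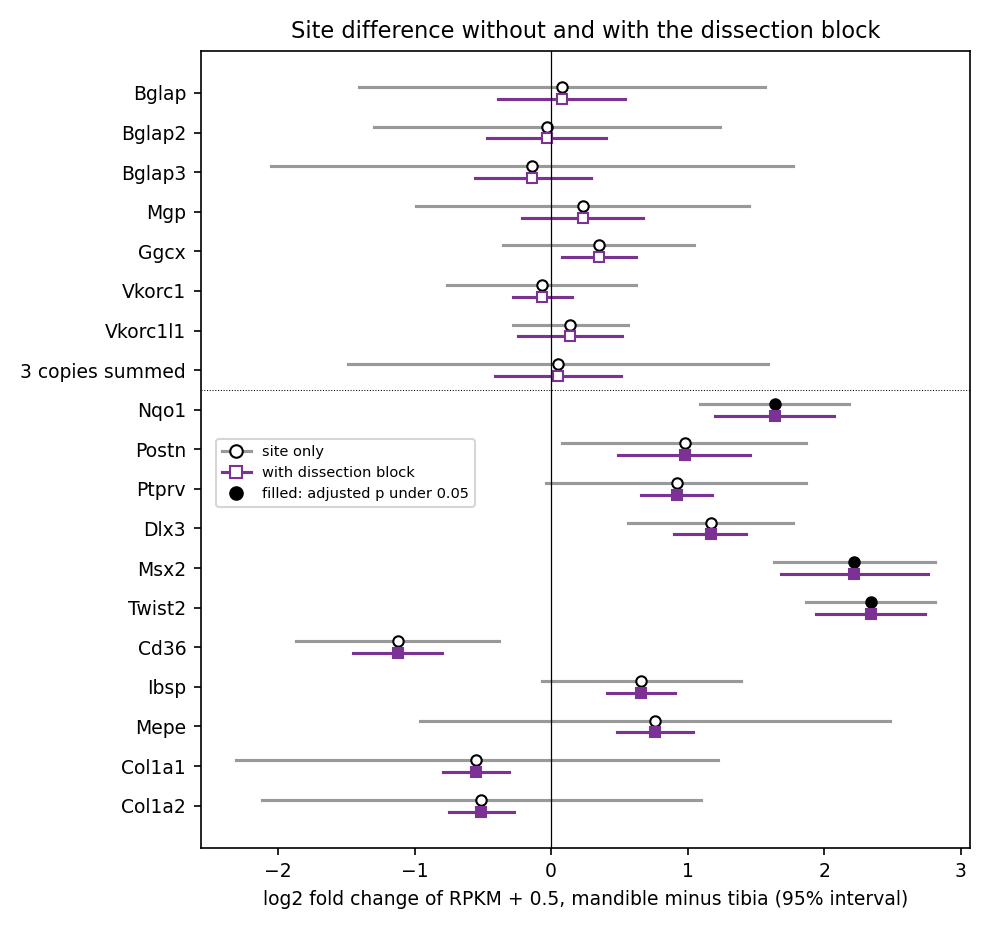
Log2 fold change of RPKM + 0.5, mandible minus tibia, with its 95% interval, for the 7 genes and the summed copies above the dotted line and for named genes of related lists that passed below it. Grey lines are the fit on site only and purple lines the fit with the dissection block, and filled symbols mark an adjusted p under 0.05. The intervals of the 7 genes narrow with the block, and Ggcx is the member whose purple interval, 0.08 to 0.62, excludes 0, with an adjusted p = 0.115. With the block 3373 of 12752 genes had an unadjusted limma p under 0.05.

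Bglap took the largest share of osteocalcin RPKM in each of the 6 libraries. Bglap took 70.2%, 73.8% and 74.2% in the mandible against 68.3%, 71.9% and 73.3% in the tibia, and Bglap2 took 29.8%, 26.2% and 25.8% against 31.7%, 28.1% and 26.7%. Bglap3 took between 0.0188% and 0.0633%. The Bglap share was higher in the mandible within each dissection, by 1.91, 1.90 and 0.894 percentage points, while the groups overlapped. The mean difference was 1.57 percentage points (72.7 ± 2.16% against 71.1 ± 2.54%, SD, n = 3 each; two-sided exact permutation p = 0.5, where 0.1 is the smallest this design allows). Paired by dissection the exact permutation p was 0.25, the smallest that 3 pairs allow. Adjusted over the 8 ratios tested with these libraries, the unpaired p was 0.8.

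Mgp, the inhibitor of calcification, was far less abundant than osteocalcin. It stood at 78.7, 198.8 and 258.1 RPKM in the mandible and 96.9, 122.6 and 210.9 RPKM in the tibia. Library 1 was the lowest and library 3 the highest at each site, and the groups overlapped. The means were 178.5 ± 91.4 and 143.5 ± 59.8 RPKM (SD, n = 3), a log2 fold change of 0.23 (SE 0.51, 95% interval -0.99 to 1.45, limma adjusted p = 0.969). Without mandible library 1 it was 0.74 and without mandible library 3 it was -0.12.

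Markers of the cell types that make most Mgp were present in the same libraries. The summed level of 10 cartilage markers was 108.9 to 269.7 RPKM in the mandible and 25.9 to 100.2 RPKM in the tibia, 3 of the 9 tested were higher in the mandible (5 with the block), and the defining marker Matn1 was at 0 in some libraries. The 8 markers of vascular smooth muscle and pericytes summed to 42.3 to 95.7 and 51.3 to 85.2 RPKM, and 0 of 8 passed in either fit. In mandible library 2 both lists were at their highest, whereas Mgp was highest in mandible library 3. Their part in the level of Mgp was not tested.

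The RPKM of the 3 osteocalcin copies was 325.5, 126.4 and 147.3 times that of Mgp in the mandible, and 243.6, 143.9 and 252.6 times in the tibia. The ratio was higher in the mandible in dissection 1 and lower in dissections 2 and 3, and it did not differ beyond the spread between libraries (mean difference -13.6, two-sided exact permutation p = 0.9, adjusted p = 0.9 over the 8 ratios).

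Ggcx, the single carboxylase for all Gla proteins, was at 29.9, 30.1 and 19.4 RPKM in the mandible and 21.6, 26.6 and 14.5 RPKM in the tibia. It was higher in the mandible within each dissection, as 36.8% of all genes were, while mandible library 3 lay below tibia libraries 1 and 2. The means were 26.5 ± 6.09 and 20.9 ± 6.06 RPKM (SD, n = 3), a log2 fold change of 0.35 (SE 0.29, 95% interval -0.35 to 1.05, limma adjusted p = 0.877). When the dissection number entered as a block, the SE was 0.11 and the unadjusted p 0.0186, and limma's adjusted p = 0.115 did not pass. In that fit 3373 of the 12752 genes had an unadjusted p under 0.05. With the block, Ggcx stood at 0.21 under quantile normalization (limma adjusted p = 0.336) and under median-of-ratios scaling (0.379). The difference kept its direction in all 27 alternatives, from 0.11 without tibia library 3 to 0.55 without mandible library 3.

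Vkorc1, the epoxide reductase, was at 308.1, 346.8 and 455.4 RPKM in the mandible and 315.1, 373.2 and 477.2 RPKM in the tibia. Library 1 was the lowest and library 3 the highest at both sites, and Vkorc1 was slightly lower in the mandible within each dissection, as were 13.4% of all genes. The means, 370.1 ± 76.3 and 388.5 ± 82.1 RPKM (SD, n = 3), gave a log2 fold change of -0.07 (SE 0.29, 95% interval -0.76 to 0.62, limma adjusted p = 0.984). With the block the 95% interval was -0.28 to 0.15 (adjusted p = 0.665). The value was 0.05 without mandible library 1 and 0.09 without tibia library 3.

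Vkorc1l1, the paralog, was at 2.49, 2.08 and 2.75 RPKM in the mandible and 2.39, 2.18 and 1.92 RPKM in the tibia. Its rank was 8202 to 9204 over the libraries, in which 10765 to 11249 genes reached 1 RPKM. Mandible library 3 was the highest and tibia library 3 the lowest, and the groups overlapped. The log2 fold change of the gene was 0.14 (SE 0.18, 95% interval -0.28 to 0.56, limma adjusted p = 0.95). Its main transcript, NM_027121, was at 1.74, 1.37 and 1.63 RPKM against 1.72, 2.02 and 1.55, with a log2 fold change of -0.12, so the sign depended on the other 2 transcripts.

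Of the summed RPKM of both reductases, Vkorc1 made up 99.2%, 99.4% and 99.4% in the mandible and 99.3%, 99.4% and 99.6% in the tibia. The groups overlapped (difference -0.0873 percentage points, two-sided exact permutation p = 0.4, adjusted p = 0.8), and the sign turned without tibia library 3.

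Ordered by mean RPKM over the 6 libraries, the members ran from Bglap (22088) over Bglap2 (8441), Vkorc1 (379.3), Mgp (161), Ggcx (23.7) and Bglap3 (13.6) to Vkorc1l1 (2.30). RPKM is scaled by transcript length, but differences between libraries of a site still moved with length, as described below. The split between Bglap and Bglap2 rests mainly on few bases, and Vkorc1 may include reads of an overlapping locus. The order therefore describes RPKM only, and how far it reflects transcript numbers was not tested. The ranges of Bglap and Bglap2 overlapped across libraries, as did those of Ggcx and Bglap3, and the other neighbours in this order did not overlap. From the spacing of low RPKM values, library totals of 48.8 to 58.0 M reads were estimated, without a separate check. At these totals Bglap stood on an estimated 288215 to 887632 reads per library and Ggcx on 2197 to 5110, whereas Bglap3 stood on 287 to 1670 and Vkorc1l1 on 285 to 472. Bglap3 and Vkorc1l1, on the fewest reads, carry the largest counting error, and amplification from nanograms of RNA adds error that read numbers do not show.

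Substrate and enzyme were also set against each other within each library. The log2 ratio of the RPKM of the osteocalcin copies plus Mgp to that of Ggcx was 9.75, 9.72 and 10.9 in the mandible against 10.1, 9.38 and 11.9 in the tibia. Library 3 was the highest at each site. The sites did not differ beyond the spread (difference -0.309, two-sided exact permutation p = 0.7, adjusted p = 0.8), and without tibia library 3 the difference was 0.393. The log2 ratio of Vkorc1 to Ggcx was 3.37, 3.53 and 4.55 in the mandible and 3.87, 3.81 and 5.04 in the tibia. It stood lower in the mandible within every dissection, by differences of -0.502, -0.285 and -0.49, while the groups overlapped (mean difference -0.426, exact permutation p = 0.5, and 0.25 paired, the smallest possible).

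**Figure D3:**
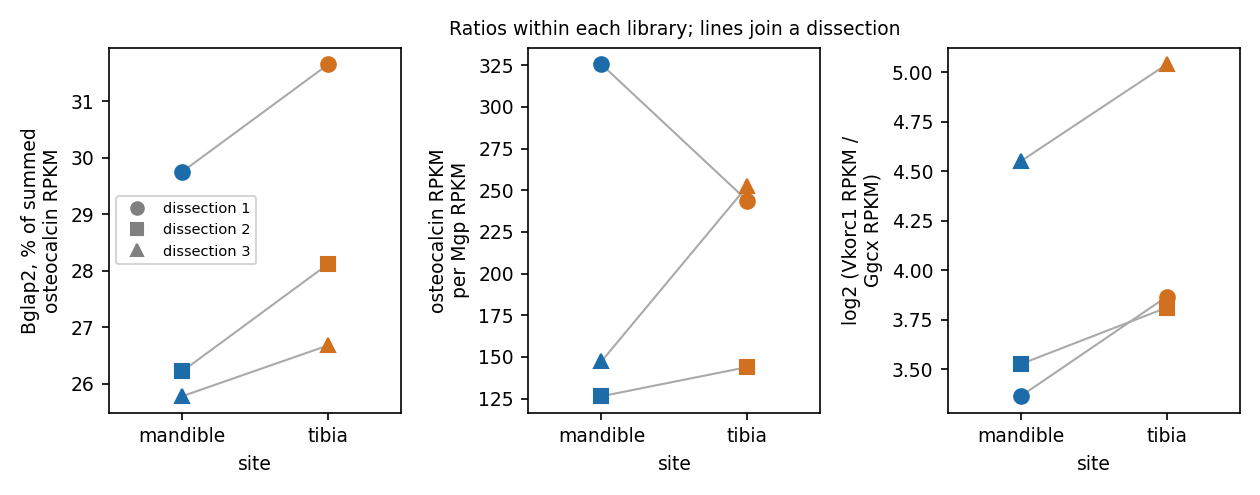
Bglap2 as a percentage of summed osteocalcin RPKM, osteocalcin RPKM per Mgp RPKM, and the log2 ratio of Vkorc1 to Ggcx, per library, with grey lines joining the mandible and tibia libraries of a dissection. The Bglap2 share and the Vkorc1 to Ggcx ratio are lower in the mandible within all 3 dissections, with differences of -0.892 to -1.91 percentage points and -0.285 to -0.502, while the osteocalcin to Mgp ratio has no common direction. The axes do not start at 0.

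Dissection 3 stood apart for most of the members. Relative to the mean of libraries 1 and 2 of the same site, on the log2 scale, library 3 was higher by 0.63 in the mandible and 1.45 in the tibia for Bglap and by 0.47 and 1.22 for Bglap2. For Bglap3 the differences were 1.81 and 2.41, for Mgp 1.04 and 0.95 and for Vkorc1 0.48 and 0.48. Ggcx went the other way at both sites, at -0.61 and -0.70, and Vkorc1l1 stood at 0.22 and -0.20. The members that were higher in library 3 have short transcripts, from 440 bases for Bglap, 471 for Bglap2, 617 for Mgp and 748 for Vkorc1 to 717 to 2051 for Bglap3. Ggcx, which was lower, has 2929 bases.

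Transcript length moved with the same difference over all genes with 1 transcript. The median difference of library 3 from libraries 1 and 2 was 1.04 in the mandible and 0.84 in the tibia for the 640 genes under 1 kb. It was 0.40 and 0.35 from 1 to 2 kb, 0.05 and 0.11 from 2 to 4 kb, and -0.18 and 0.02 for the 2411 genes of 4 kb and over. Vkorc1 lay below the median of its length class at both sites, and Bglap and Bglap2 lay below it in the mandible and above it in the tibia. Ggcx, at -0.61 and -0.70, lay below the medians of its class, 0.05 and 0.11. In the difference between sites the same classes had medians of 0.14, 0.15, 0.13 and 0.07, without such a gradient. Summed RPKM was also higher in library 3, at 586126 for mandible library 3 and 547950 for tibia library 3 against 374077 to 410846 in the other 4 libraries. The part of transcript length in the members' values was not tested.

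**Figure D4:**
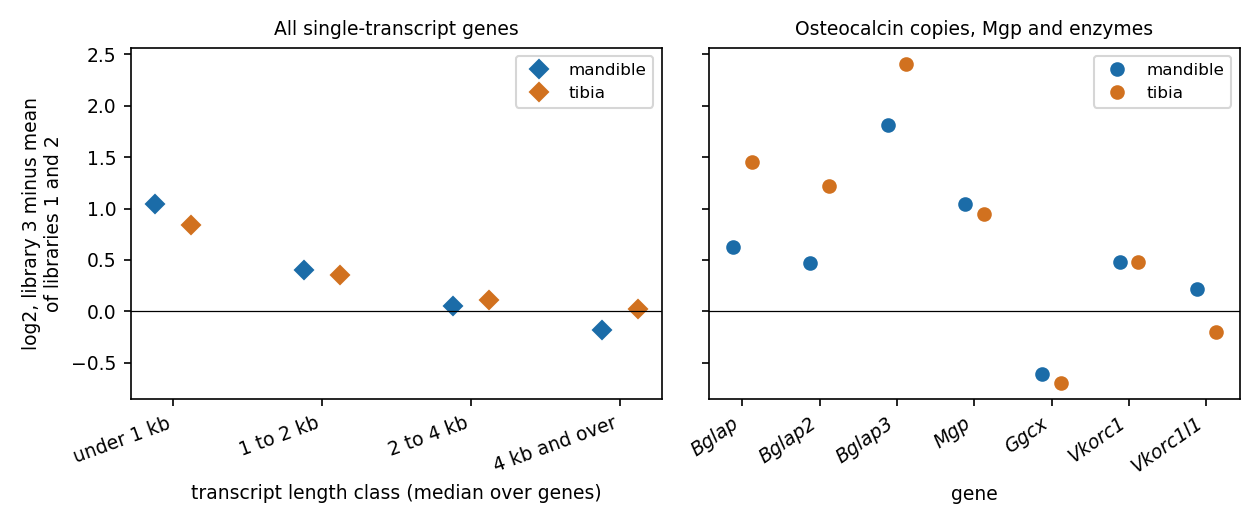
Log2 difference of library 3 from the mean of libraries 1 and 2 of the same site, as the median over single-transcript genes in 4 classes of transcript length (left) and for the 7 genes (right), with the mandible in blue and the tibia in orange. Medians descend from 1.04 and 0.84 under 1 kb to -0.18 and 0.02 at 4 kb and over, and the members range from -0.70 for Ggcx to 2.41 for Bglap3, both in the tibia.

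Other facts of the libraries moved with dissection and site as well. The 4 haemoglobin genes measured made up 0.555%, 1.87% and 3.5% of all RPKM in the mandible and 1.47%, 3.5% and 7.8% in the tibia, and all 7 erythroid markers were lower in the mandible with the block. Enamel and dentine markers, 5 of 5 higher in the mandible, summed to 564.8 to 2192 RPKM there and to 6.25 to 7.09 RPKM in the tibia. All 6 osteoblast markers were expressed, at a summed 11275 to 28164 and 13773 to 38904 RPKM, with the lowest value of each site in library 3. None of these 6 passed without the block, and with it 1 was higher and 2 were lower in the mandible. The 6 osteoclast markers summed to 678.9 to 822.5 and 587.2 to 635.9 RPKM, with 0 of the 5 tested passing in either fit. Col1a1 and Col1a2 together made up 6.39%, 6.12% and 1.42% of RPKM in the mandible and 9.82%, 9.38% and 2.16% of it in the tibia, so that library 3 was the lowest for the collagens and not for osteocalcin. The part of these markers in the members' values was not tested.

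The list of the vitamin K cycle and its handling held 8 genes, Ggcx and both reductases among them. Of the 5 others 1 passed, the quinone reductase Nqo1, which can reduce vitamin K outside the cycle. Nqo1 was at 11.5, 10.3 and 10.4 RPKM in the mandible and 2.62, 2.58 and 4.38 RPKM in the tibia, so that every mandible library lay above every tibia library. It rose in the mandible by 1.64 on the log2 scale (SE 0.23, limma adjusted p = 0.029). The direction held without any single library, at 1.52 to 1.85, but the call was lost without mandible library 1, 2 or 3 or tibia library 1 or 2 (adjusted p = 0.181, 0.163, 0.0632, 0.164 and 0.142). The call was also lost with no filter on low values (adjusted p = 0.0597), at a mean of at least 5 RPKM (0.0756), when rescaled without dominant genes (0.103) and when dissection 1 or 2 was left out at both sites (0.756 and 0.62). With the block Nqo1 passed also without any 1 dissection (adjusted p = 0.00965, 0.0436 and 0.00114). With the 3 members included, the list had a median log2 fold change of 0.33 against 0.12 over all genes. P4hb, the protein disulfide isomerase that is the most abundant of the list, stood at 0.61 without passing (adjusted p = 0.929), ranging from 108.6 RPKM in tibia library 3 to 603.6 in tibia library 2.

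Of the other Gla proteins, 8 of 14 were above the filter and 0 passed, with a median of 0.06. Protein S, Pros1, an anticoagulant, stood at 24.1, 22.6 and 14.04 RPKM against 25.2, 23.3 and 7.78, a log2 fold change of 0.24 (limma adjusted p = 0.966). Periostin, Postn, a matrix protein of periosteum and ligament described as carboxylated, stood at 351.5, 395.8 and 238.4 RPKM in the mandible and 113, 257.2 and 149.3 RPKM in the tibia. It was higher in the mandible in each dissection and passed with the block (0.98, limma adjusted p = 0.505 without it and 0.0437 with it). With the block it did not pass without dissection 2 (0.0909), with quantile normalization (0.0892) or with median-of-ratios scaling (0.0739). The 6 fibroblast and tendon markers, a group that also makes periostin, summed to 1852 to 1888 and 1582 to 2078 RPKM, with 0 of 6 passing in either fit, and their part was not tested. The receptors of Gas6 and protein S, Tyro3, Axl and Mertk, had 0 of 3 members passing in either fit, with Axl at 0.24 and Mertk at 0.47.

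Genes of osteocalcin processing and signalling had 7 of 9 members above the filter, 0 passing and a median of -0.09. With the block Ptprv, the osteoblast phosphatase that acts on the insulin receptor and thereby on osteocalcin activation in the mouse, was higher in the mandible. It stood at 21.6, 23.2 and 10.8 RPKM against 11.6, 11.6 and 5.47, a log2 fold change of 0.92 (limma adjusted p = 0.59 without the block, 0.00749 with it and 0.0753 with it but without dissection 2). Within each dissection the mandible value was the higher, although mandible library 3 lay below tibia libraries 1 and 2. Pcsk6, a proprotein convertase and one of the most abundant of the list, stood at -0.47 (adjusted p = 0.539). Gprc6a, a proposed receptor of osteocalcin, was listed at 0 in 5 libraries and at 0.00677 RPKM in mandible library 3. Gpr158, a receptor described in brain, was at most 0.0324 RPKM.

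Of 15 regulators known to act on osteocalcin transcription, all tested, 2 rose, the homeobox factor Msx2 and the basic helix-loop-helix factor Twist2, both described as repressors of osteocalcin or of Runx2, and 14 of 15 had a log2 fold change above 0, as did 67.8% of all genes tested, with a median of 0.24 against 0.12. Msx2 stood at 3.29, 2.67 and 3.58 RPKM in the mandible and 0.0847, 0.516 and 0.312 RPKM in the tibia. Twist2 stood at 3.00, 2.38 and 2.39 RPKM against 0.168, 0.173 and 0. For both factors every mandible library lay above every tibia library. Msx2 lost its call without mandible library 1 or 2 or tibia library 1 (limma adjusted p = 0.0807, 0.0627 and 0.054), whereas Twist2 kept it without any single library. Both lost it when dissection 1 or 2 was left out at both sites (limma adjusted p = 0.283 and 0.184 for Msx2, 0.183 and 0.196 for Twist2). With the block both passed without any 1 dissection. Dlx3, which also marks tooth cells, passed with the block (1.17, limma adjusted p = 0.15 without it and 0.00322 with it). The mandible libraries also held the enamel and dentine markers given above. The part of tooth cells in the levels of Msx2, Twist2 and Dlx3 was not tested. The most abundant of the list, Atf4 at 0.24 and Dlx5 at 0.33, did not pass.

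Receptors and carriers for the uptake of vitamin K with lipoproteins had 5 of 6 members above the filter, 0 passing and a median of -0.01. With the block, the scavenger receptor Cd36 was lower in the mandible. Cd36 stood at 2.12, 2.94 and 4.47 RPKM against 6.01, 6.12 and 10.3, a log2 fold change of -1.12 (adjusted p = 0.293, and 0.00791 with the block), and kept the call without any 1 dissection. Cd36 is also made by endothelial cells and macrophages. The 7 endothelial markers summed to 65.1 to 93.0 RPKM in the mandible and 107.1 to 233.2 RPKM in the tibia, with 5 of 7 lower with the block, and the 5 macrophage markers to 179.3 to 869.3 and 243.1 to 943.2 RPKM, with 2 of 5 lower with the block. The part of these cells in the level of Cd36 was not tested. The most abundant of the uptake list, Apoe at -0.31 and Scarb1 at -0.01, did not pass.

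Among 10 genes of bone matrix that accompany osteocalcin, 0 passed and the median was 0.26. With the block 2 were higher in the mandible, the sialoprotein Ibsp and the phosphoglycoprotein Mepe, and 2 lower, Col1a1 and Col1a2. Ibsp stood at 2364, 2363 and 2600 RPKM in the mandible and 1360, 1671 and 1622 RPKM in the tibia, with no overlap. Its log2 fold change was 0.66 (limma adjusted p = 0.628, 0.0192 with the block, and 0.0852 and 0.0723 with the block but without dissection 1 or 2). Without dissection 2 the block no longer called Mepe (adjusted p = 0.129), and without dissection 1 or 2 it no longer called Col1a1 (0.145 and 0.141) or Col1a2 (0.121 and 0.205). Osteopontin, Spp1, the most abundant of the list after Col1a1, stood at 0.46 without passing and, like Bglap, was highest in library 3 at each site.

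The genes whose levels followed a member most closely were named by Pearson correlation of log2(RPKM + 0.5) over the 6 libraries, among 3885 genes with a mean of at least 10 RPKM. For Bglap these were Foxred1 (0.995), Nemf (0.992), Luc7l2 (0.990), Lin37 (0.985) and Scnm1 (0.985). For Bglap2 they were Inpp4a (0.989), B4galt1 (0.980), Ctsb (0.976), Rasgef1b (0.973) and Impact (0.972), with no gene in common with Bglap. For Mgp they were Poldip3 (0.964), Twf1 (0.955), Nabp2 (0.944), 0610010K14Rik (0.943) and BC017643 (0.935). Ggcx was followed by Lrrc41 (0.9995), Por (0.997), Ergic1 (0.996), Hyou1 (0.995) and Rasl11b (0.995), and Vkorc1 by Cflar (0.996), Blvrb (0.996), Rhog (0.995), Stfa2 (0.995) and Wdr8 (0.993). Among the members, Ggcx ran against Bglap (-0.80) and Vkorc1 (-0.78), and Vkorc1 ran with Bglap3 (0.96). These values rest on 6 libraries of which the pair of dissection 3 stands apart, and they are given without a test.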

How the data were processed

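Per the labels' protocols, RNA of sorted cells was converted with SMART-Seq v4 and sequenced on an Illumina HiSeq instrument. The deposited values are RPKM per RefSeq transcript (30198 transcripts, 6 libraries). The submitters' processing notes name CASAVA 1.8.2, TopHat2 2.1.0, Partek 6.6 and build mm10, and the file headers name Partek 6.15.1207. Strand, read length and the rule for multiply matching reads are not given in the sources used here.

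Transcripts were summed per symbol. Sites were compared with limma 3.58.1 (R 4.3.3) on log2(RPKM + 0.5), with a mean-variance trend, two-sided, Benjamini-Hochberg adjusted over 12752 genes with a mean of at least 0.5 RPKM, at 0.05. This scale understates changes of low genes. The fit was tested on simulated data. No count model was fitted, since the deposited values are RPKM and many low values did not fall on whole reads. Each library total was estimated as the one that put most low values within 0.05 of whole reads. The share reached, 62.5% to 69.6%, is thus the quantity maximised and not a check on the totals. Ratios had exact permutation tests (3 against 3), adjusted over 8 ratios. Figures used matplotlib 3.10.9 (Python 3.11.15).

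Labels tie libraries of equal number to a dissection, and the number was used as a block in a second fit. Deviations from site means correlated at 0.59, 0.66 and 0.80 for pairs 1, 2 and 3. Unmatched libraries 1 and 2 reached 0.55 (number 1 of the mandible) and 0.52 (number 2 of the mandible). Unmatched pairs that held a library 3 lay from -0.71 to -0.64. The correlations thus set dissection 3 apart but barely separate dissections 1 and 2, whose pairing rests on the labels. P-values measure spread between 3 pooled preparations. The 7 members, the 16 gene lists and the tests were chosen with earlier results of these data known. Named were all members and, of each list on osteocalcin, vitamin K and matrix, genes that passed either fit and the 2 most abundant, with cell type markers given by ranges and counts, and for likeness the 5 closest genes. One gene that this rule names is not reported here. Alternatives covered pseudocount, filter, scaling, transcripts, the block and left-out libraries.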

Additional observations from a re-analysis of the deposited data

How the results depend on the processing

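No member passed under any alternative run. The lowest adjusted p of a gene was 0.115, for Ggcx with the dissection block, and of a single transcript 0.0731, for NM_031368 of Bglap3 with the block. The count of 124 genes called became 828 with the replicate block (566 higher and 262 lower in the mandible), 784 with the block and quantile normalization (360 higher and 424 lower), 20 at a mean RPKM of at least 5, and 58 when rescaled without dominant genes. It ranged from 37 to 141 when single libraries were left out. Without both libraries of dissection 1, 2 or 3 it was 6, 0 and 724, where limma had 469 genes at an unadjusted p under 0.05 beside the 0. Further settings, chosen after seeing the data, gave 828 with the copies summed and the block, 518 for single transcripts with the block, 758 for the block with median-of-ratios scaling (367 higher and 391 lower), and 448, 198 and 1168 for the block without dissection 1, 2 or 3.

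Signs turned for several members near 0, and the cause was not tested. Bglap was at -0.06 with median-of-ratios scaling, with or without the block, at -0.11 rescaled without dominant genes, at -0.16 without dissection 2, with or without the block, and between -0.25 and 0.56 without single libraries (-0.13 without mandible library 3, -0.08 and -0.25 without tibia library 1 or 2). Bglap2 was at 0.22 with quantile normalization and without dissection 3, with or without the block in each case, and between -0.38 and 0.37 without single libraries (0.10 without mandible library 2, 0.37 without tibia library 3). Bglap3 was at 0.06 without dissection 3, with or without the block, and between -0.74 and 0.66 without single libraries (0.33 without mandible library 1, 0.66 without tibia library 3). Mgp was at -0.00 without dissection 2, with or without the block, and between -0.12 and 0.74 without single libraries (-0.12 without mandible library 3, -0.01 without tibia library 1). Vkorc1 ranged from -0.23 to 0.09 (0.05 without mandible library 1, 0.09 without tibia library 3). Vkorc1l1 was at -0.02 rescaled, at -0.12 as its transcript NM_027121 alone, with or without the block, and at -0.00 without dissection 3, with or without the block. Col1a2 ranged from -1.02 to 0.01 without single libraries, the latter without mandible library 3. The Vkorc1 share differed by -0.175 to 0.00152 percentage points and the log2 ratio of Gla proteins to carboxylase by -0.838 to 0.393 over left-out libraries, both turning sign without tibia library 3, while the Bglap share kept its sign, at 0.159 to 2.81 percentage points.

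Precision is limited by 3 pooled preparations per site, the shared sequence of the osteocalcin copies, and dissection 3. For Bglap3 and Vkorc1l1, at an estimated 285 to 1670 reads per library, counting error adds to the spread. The block changed no call of a member.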
